A study of Mus musculus with 12 samples.

Results

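Npy and Sst encode neuropeptide Y and somatostatin, a pair of peptides of inhibitory interneurons. Their mRNA was followed through 5 dissected pieces of the embryonic hemisphere and through the undivided one. All probe sets carrying either symbol in the platform annotation were taken, which gave 2 of 12422 probe sets and 2 of 8251 genes with a single symbol, 103235_at for Npy and 95436_at for Sst, and both passed the filter on low values. The tissue was cortex of mouse embryos at E16.5, of a strain and genotype that the labels do not give, and no treatment is named. There were 2 arrays for each of 6 groups: the medial, dorsal, ventral, rostral and occipital pieces, and the undivided hemisphere. The labels say that the experiment was done again with an independent dissection, and do not say how many embryos were pooled. One piece is rostral in the titles and lateral in the protocol, and is called rostral here.

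Neuropeptide Y and somatostatin are made as larger precursors, which are cut by proconvertases inside secretory granules, stored there and released to act on G-protein-coupled receptors. In the adult cortex both mark GABAergic interneurons, and one subclass makes both. Most such neurons are born in the ganglionic eminences at the base of the telencephalon, outside the cortex, and migrate dorsally and tangentially into it before birth. Neuropeptide Y is also made by other cells of the developing forebrain, and somatostatin lowers cAMP in the cells that bear its receptors.

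The 250 bases before the transcript start used in the RefSeq promoter table are shown because they hold the element through which transcription of Sst is best known to be controlled. For Sst that start lies at 23890844, 498 bases inside the annotated gene (23889573 to 23891342 on chromosome 16), so its window lies within the gene as annotated. The windows were read from RefSeq (GRCm38.p6) and are written 5' to 3' on the strand of the gene. Capitals mark matches on either strand to TGACGTCA, the cAMP response element known from the rat somatostatin promoter, and to GGGCGG, the GC box.
Npy, chr6:49822460-49822709, plus strand: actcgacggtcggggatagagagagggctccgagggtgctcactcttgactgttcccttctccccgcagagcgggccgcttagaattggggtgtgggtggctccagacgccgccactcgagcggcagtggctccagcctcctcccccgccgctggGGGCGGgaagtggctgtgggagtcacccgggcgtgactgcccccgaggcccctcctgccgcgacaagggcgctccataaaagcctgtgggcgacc
Sst, chr16:23890845-23891094, minus strand: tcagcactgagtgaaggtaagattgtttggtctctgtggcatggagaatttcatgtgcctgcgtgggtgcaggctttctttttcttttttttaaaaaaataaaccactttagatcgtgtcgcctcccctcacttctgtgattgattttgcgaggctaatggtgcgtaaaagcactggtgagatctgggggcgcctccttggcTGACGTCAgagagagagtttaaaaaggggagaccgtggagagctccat
The Sst window holds 1 cAMP response element, which ends 40 bases before the start, and the Npy window has 0 matches to it. Of 32851 windows of this length in the table, 508 (1.55%) hold that octamer. GGGCGG has 1 match in the Npy window, 89 bases before the start, and 0 in the Sst window, and 32.7% of all windows hold it. The homeodomain core TAATTA, present in 4.84% of windows, has 0 matches in either. The GC content was 69.2% for Npy and 47.2% for Sst. These matches describe sequence only, and the arrays measured no factor binding.

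Values are Affymetrix average differences, a linear intensity that the authors had scaled to a common mean per array. Differences are on log2 of these values after raising those under a floor of 693.5 to it, and 2 arrays of a group give little precision. Each array had 39.1% to 41.7% of its values above 2 floors. On all 12 arrays Npy and Sst exceeded 2 floors, the lowest being Sst at 2.49 floors on medial replicate 2. The cortical markers Tbr1 and Neurod6 were present on every array. Tbr1, a factor of deep-layer projection neurons, averaged between 14659 in the medial and 22702 in the dorsal piece. Neurod6, a factor of pallial neurons, averaged between 4911 in the ventral and 14971 in the dorsal piece. Rostral replicate 2 correlated more closely with occipital replicate 1 (r = 0.963 across probe sets) than with rostral replicate 1 (0.934), and rostral replicate 1 with occipital replicate 2 (0.944), while the occipital replicates correlated at 0.936 with each other. Both crossed pairs thus stood closer than the replicates. An exchange of the rostral and occipital labels within a replicate number cannot be told apart from a likeness of these pieces, and the labels were kept. All values of the rostral and occipital pieces carry this doubt, and so do means of other pieces that include them. In a fit without these 4 arrays, where the reference of each piece is the other 2 pieces, Npy differed by -2.18 in log2 in the medial piece (limma adjusted p = 0.00206), 1.67 in the dorsal (0.00975) and 0.51 in the ventral piece (0.0765). Sst differed there by -2.28 in the medial (adjusted p = 0.0304 in limma), -1.65 in the dorsal (0.164) and 3.93 in the ventral piece (0.00251). The beta-actin signal of the 5' over the 3' probe set, which tracks how far cDNA synthesis ran, was 0.604 to 0.831 on arrays numbered 1 and 0.804 to 0.887 on those numbered 2. Its part in the results was not tested. In dissected tissue, fewer expressing cells and less mRNA per cell cannot be told apart.

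Npy was most abundant in the dorsal piece. Its average difference was 26128 and 27370 on the dorsal arrays and 17194 and 14337 on the ventral arrays. It was 7591 and 7331 on the occipital, 6319 and 6694 on the rostral, and 4480 and 4552 on the medial arrays. The 2 arrays of each piece stood together and no pieces overlapped, so the order from dorsal through ventral, occipital and rostral to medial was the same in both replicates. Replicates differed at most 1.20-fold, in the ventral piece, against a 5.92-fold span between the dorsal and the medial mean. limma's F-test over the 5 pieces gave adjusted p = 0.000943, and Npy had the largest F of the 5832 probe sets tested, of which 190 (3.26%) passed.

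Sst was most abundant in the ventral piece. It read 50907 and 42183 on the ventral arrays, 11583 and 18887 on the occipital, and 14867 and 11827 on the rostral arrays. The dorsal arrays gave 4296 and 2876 and the medial arrays 3969 and 1730. The ventral arrays stood above all others. The occipital and rostral arrays overlapped with each other, the dorsal and medial arrays likewise, and the first pair of pieces lay wholly above the second. Replicates spread more than for Npy, up to 2.29-fold in the medial piece. The ventral mean of 46545 ± 6168 (SD, n = 2) was 17.7-fold the medial mean of 2849 ± 1583 (SD, n = 2) by log2 means, and the F-test gave adjusted p = 0.00547 (limma). Without ventral replicate 1 or 2 this adjusted p was 0.0617 or 0.0546. On the piece arrays Sst was higher in replicate 1 than in replicate 2 in 4 of the 5 pieces, the exception being occipital.

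**Figure D1:**
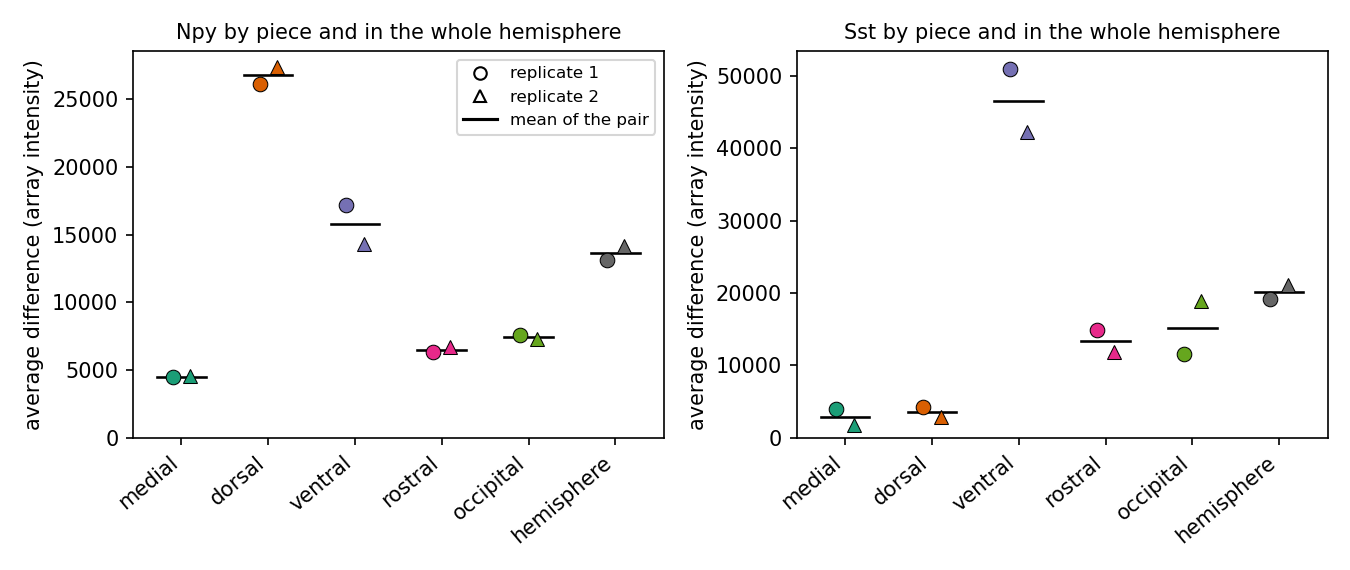
Average difference of Npy (left) and Sst (right) on each of the 12 arrays, with circles for replicate 1, triangles for replicate 2 and a bar at the mean of each pair. Npy peaks in the dorsal piece at 26128 and 27370, and Sst in the ventral piece at 50907 and 42183, while both are lowest in the medial piece.

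Each piece was then compared with the average of the other 4, weighted equally, to ask what distinguishes it. In the dorsal piece Npy averaged 26749 ± 878 (SD, n = 2) and was 3.49-fold higher than in the other pieces (log2 1.80 ± 0.12 SE, limma adjusted p = 0.000394). Of 5832 probe sets 16 (0.274%) passed in this comparison, 0.12% higher and 0.154% lower, and Npy ranked second among them by p. Sst had the opposite sign there. It averaged 3586 ± 1004 (SD, n = 2), 3.53-fold below the other pieces, and did not pass (log2 -1.82 ± 0.31 SE, 95% interval -2.53 to -1.11, limma adjusted p = 0.0715). With trend and robust variances, without medial replicate 2, or with replicate number as a block, that adjusted p was 0.0446, 0.0282 or 0.0427.

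In the ventral piece both genes rose. Sst was 7.11-fold higher than in the other pieces (log2 2.83 ± 0.31 SE) and Npy, at 15765 ± 2020 (SD, n = 2), 1.79-fold (log2 0.84 ± 0.12 SE), with limma adjusted p = 0.00155 and 0.00397. Of all probe sets 571 (9.79%) passed here, 4.25% higher and 5.54% lower. The call of Sst held whichever array was left out, with an adjusted p of at most 0.0379. That of Npy was lost without ventral replicate 1 (adjusted p = 0.0721), and also in a fit without the rostral and occipital arrays, where the ventral piece was compared with the medial and dorsal pieces alone (log2 0.51, adjusted p = 0.0765).

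In the medial piece both genes fell. Npy averaged 4516 ± 51.0 (SD, n = 2) and was 2.65-fold lower than in the other pieces (log2 -1.40 ± 0.12 SE, limma adjusted p = 0.0033). Sst was 5.10-fold lower (log2 -2.35 ± 0.31 SE, limma adjusted p = 0.0186). In this comparison 74 probe sets (1.27%) passed, 0.514% higher and 0.754% lower. Without medial replicate 2 the adjusted p was 0.0821 for Npy and 0.206 for Sst. The call of Sst was also lost without dorsal replicate 2 (0.0517), either ventral array (0.0587 and 0.0541) or the filter on low values (0.0627).

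The rostral and occipital pieces differed between the 2 genes in sign, but neither gene passed. Npy was lower than in the other pieces in the rostral (log2 -0.75, 95% interval -1.02 to -0.47) and the occipital piece (log2 -0.50, 95% interval -0.77 to -0.23). Sst differed by 0.57 (95% interval -0.14 to 1.28) and 0.77 (95% interval 0.06 to 1.48). For these pieces 0 of 5832 probe sets (0%) passed in limma, against 104 and 126 at an unadjusted p under 0.05. The latter were 1.03% higher and 0.754% lower in the rostral, and 1.17% and 0.995% in the occipital piece. Together these shares lie under what that threshold would give with no difference. Npy had the smallest p of all probe sets in the rostral comparison (unadjusted p = 0.000172, adjusted p = 1.000 in limma).

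Within each replicate alone, Npy stood 1.74 and 1.86 above the other pieces in the dorsal piece in log2, and 0.99 and 0.70 above them in the ventral piece. It stood -1.44 and -1.37 from them in the medial, -0.82 and -0.68 in the rostral and -0.48 and -0.51 in the occipital piece. Sst stood 2.79 and 2.87 above the other pieces in the ventral piece in replicates 1 and 2. It stood -1.67 and -1.97 from them in the dorsal, -1.81 and -2.89 in the medial, 0.57 and 0.58 in the rostral and 0.12 and 1.42 in the occipital piece. The sign of every one of these differences was the same in both replicates, under the labels as given.

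**Figure D2:**
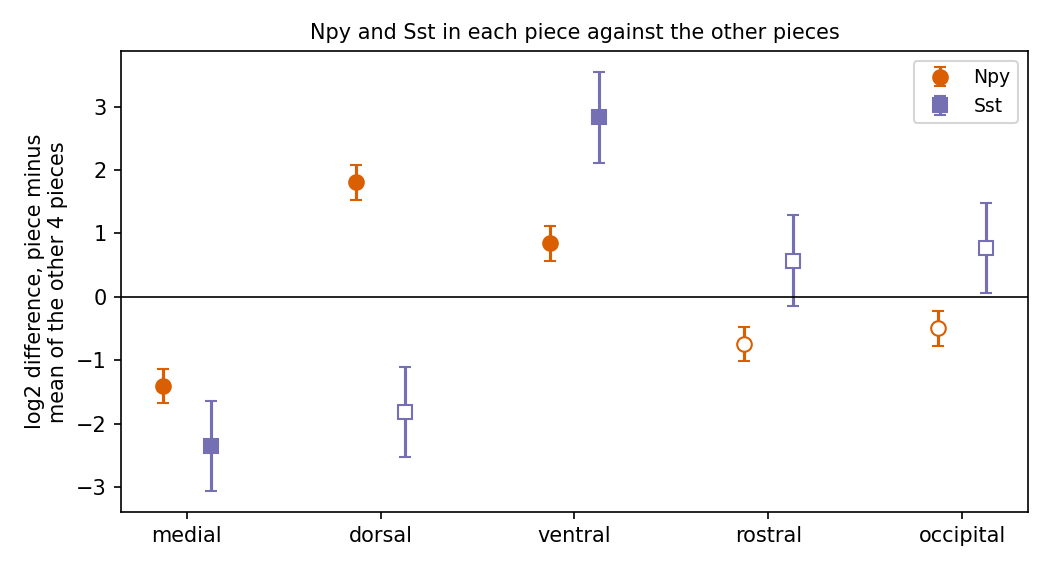
Log2 difference of Npy (circles) and Sst (squares) in each piece from the mean of the other 4 pieces, with 95% intervals from limma and filled symbols where the adjusted p is under 0.05. The genes share their sign in the medial and the ventral piece and oppose each other in the dorsal piece, at 1.80 for Npy and -1.82 for Sst.

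Pairs of pieces were compared to see which neighbours in the order differ. For Npy, dorsal exceeded ventral by 1.70-fold (log2 0.77 ± 0.15 SE, limma adjusted p = 0.0245), where 308 probe sets (5.28%) passed. This call was lost without any 1 of the 4 arrays involved, with adjusted p between 0.0651 and 0.174. Ventral exceeded occipital by 2.10-fold (adjusted p = 0.0135 in limma, 1.29% passing) and rostral by 2.41-fold (adjusted p = 0.00729, 1.58% passing). The first call was lost without either ventral or either occipital array (0.0503 to 0.122), and the second without ventral replicate 1 (0.0850) or rostral replicate 1 (0.0575).

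Among the 3 lower pieces no pair passed for Npy, although their arrays did not overlap. Rostral minus occipital was -0.20 in log2 (95% interval -0.54 to 0.15), medial minus rostral -0.53 (-0.87 to -0.18) and medial minus occipital -0.72 (-1.07 to -0.38), with limma adjusted p of 1.000, 0.528 and 0.226 and 0%, 0.0171% and 0.0686% of probe sets passing. The dorsal piece stood above these 3 by 3.58-fold to 5.92-fold. It exceeded medial with adjusted p = 0.000288 (0.0686% of probe sets passing), rostral with 0.0016 (0.0686%) and occipital with 0.00243 (0.103%), all in limma. The call against occipital was lost without either dorsal array (0.0541 and 0.0705) or occipital replicate 2 (0.0506). Ventral exceeded medial by 3.48-fold (limma adjusted p = 0.000661, 11.2% passing).

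For Sst the order was ventral, occipital, rostral, dorsal, medial, and no neighbours in it passed. Ventral exceeded occipital by 3.13-fold (95% interval of log2 0.75 to 2.55, limma adjusted p = 0.0917) and rostral by 3.49-fold (0.91 to 2.70, adjusted p = 0.0658). Rostral minus occipital was -0.16 in log2 (-1.06 to 0.74) and medial minus dorsal -0.42 (-1.32 to 0.48), with adjusted p of 1.000 for both. With replicate number as a block the pair of ventral and rostral passed (adjusted p = 0.0394), as it did with trend and robust variances (0.0494) and without either medial array (0.0348). Without the block, in limma, the pairs that passed were those of the ventral piece with the 2 lowest pieces. Dorsal was 13.2-fold below ventral (log2 -3.72 ± 0.40 SE, adjusted p = 0.00246) and medial 17.7-fold below ventral (log2 -4.14 ± 0.40 SE, adjusted p = 0.00108). Dorsal and medial were each below rostral and occipital by 3.77-fold to 5.64-fold and did not pass (adjusted p = 0.0881 to 0.266 in limma). Medial against rostral and against occipital passed with trend and robust variances (0.0484 and 0.0437). These pair comparisons share arrays and are not independent of each other.

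Whether the 2 genes follow the same profile was asked within each array, from the log2 value of Sst minus that of Npy. The difference itself depends on the probes and compares no levels, so only its change between pieces was used. It averaged 1.56 ± 0.0064 in the ventral, 1.03 ± 0.29 in the rostral and 0.99 ± 0.53 in the occipital piece, and -0.79 ± 0.86 in the medial and -2.93 ± 0.46 in the dorsal piece (SD, n = 2 each). The dorsal arrays, at -2.60 and -3.25, lay below all others. Over every division of the 10 piece arrays into 5 pairs (945), the exact permutation F-test gave p = 0.00529. The ventral minus dorsal change was 4.49 in log2, with a two-sided exact permutation p = 0.00159 over 1260 assignments, the smallest they can give. These assignments drew from all 10 piece arrays. The p thus refers to all 5 pieces being alike, and is no test of the ventral and dorsal arrays alone. Ventral and dorsal hold the highest and the lowest mean of this difference, and that p makes no allowance for picking the extreme pair. Both tests passed whichever array was left out, with p at most 0.0212 and 0.0159. Npy and Sst correlated at r = 0.14 (Spearman's rho = 0.20) over the 10 piece arrays, a description of 5 pieces with 2 arrays each.

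**Figure D3:**
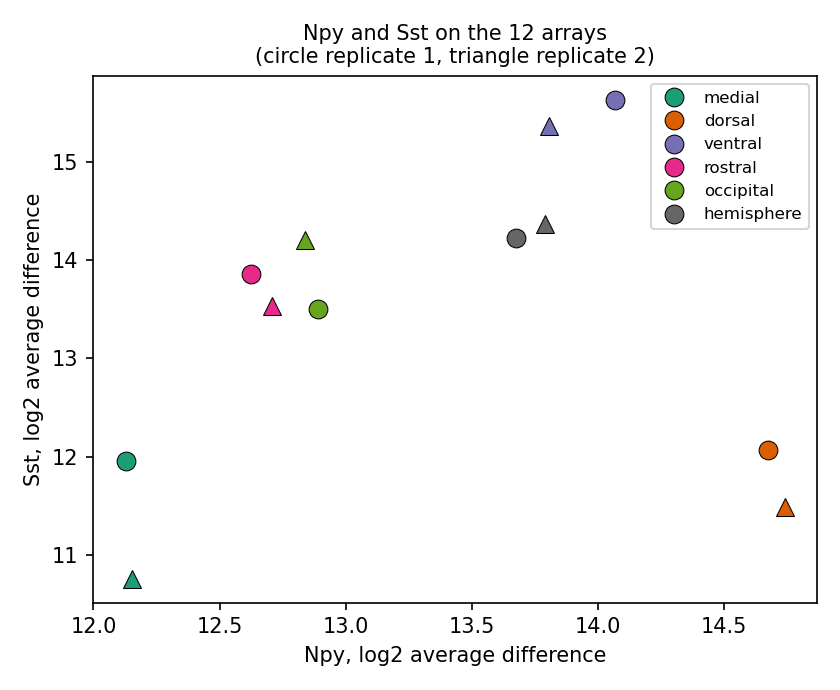
Log2 average difference of Sst against that of Npy on the 12 arrays, coloured by group, with circles for replicate 1 and triangles for replicate 2. The rostral and occipital arrays lie between the medial and the ventral arrays on both axes, and the dorsal arrays stand apart with the highest Npy and a Sst value near that of the medial arrays.

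The whole hemisphere contains all pieces and was set beside their mean. Npy was 13100 and 14165 in the hemisphere, against linear means over the 5 pieces of 12342 in replicate 1 and 12057 in replicate 2. Sst was 19220 and 21143 in the hemisphere, against 17124 and 15501 over the pieces. Both genes thus stood above the unweighted mean of the pieces in both replicates, 1.12-fold for Npy and 1.24-fold for Sst overall. Against the mean of the pieces' log2 values the difference was 0.47 ± 0.12 SE for Npy and 1.06 ± 0.31 SE for Sst. Neither passed (limma adjusted p = 0.962 for both). That log2 mean lies below the linear mean whenever the pieces differ. An even mix of the pieces would thus itself give a positive value, and the log2 differences do not measure the same excess as the linear folds. In the log2 comparison 0 of 5832 probe sets (0%) passed in limma, against 277 at an unadjusted p under 0.05 (1.83% higher and 2.91% lower). The pieces enter this mean with equal weight, whatever their share of the tissue. The 2 hemisphere arrays correlated at r = 0.901 across probe sets, the lowest of any replicate pair. Hemisphere replicate 1 also had the lowest beta-actin ratio, 0.604.

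The other peptide precursors were examined next. Over all tested probe sets, the shares at an unadjusted p under 0.05 were 9.83% higher and 13.2% lower in the ventral, 2.73% and 3.89% in the dorsal, and 6.77% and 7.12% in the medial piece, beside the adjusted shares given above for each. Of 47 in the list 34 had a probe set with that single symbol, and 12 passed the filter, Npy and Sst among them. In the ventral piece 4 of the 12 rose and 0 fell by limma (5 and 0 at an unadjusted p under 0.05), against 4.25% and 5.54% of all probe sets, with a median log2 difference of 0.41 against -0.02 over all tested probe sets. They were Npy, Sst, the enkephalin precursor Penk (log2 3.36) and the tachykinin precursor Tac1 (log2 1.98). The second tested probe set of Penk differed by 0.81 in log2 (limma adjusted p = 0.242). In the dorsal piece Npy was the only precursor of the 12 that rose, and 0 fell by limma (1 and 2 at an unadjusted p under 0.05). The median there was -0.25 against 0.02. In the medial piece 0 rose and 2 fell by limma (0 and 3 at an unadjusted p under 0.05), namely Npy and Sst. Cholecystokinin (Cck) differed by 1.62 in the ventral (adjusted p = 0.0536 in limma) and by -0.96 in the dorsal piece. Genes listed here and below with arrays at the floor, among them Penk, Tac1, Scg2, Resp18, Calb1, Grik1, Drd2 and Cxcr4, have differences that the floor makes smaller. Where both arrays of a group lie under it, the floor also removes their spread, which lowers the variance in the fit and can lower p. Among such cases are Resp18 in the medial and dorsal pieces (means of 472 and 306) and Scg2 in the medial piece (274). Without ventral replicate 1 the ventral count of precursors was 2, and the medial count was 0 without medial replicate 2 and 1 without dorsal replicate 2 or either ventral array. Vip, Pdyn, Pnoc and Cort, the last encoding a close relative of somatostatin, did not pass the filter.

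Of 13 tested genes that cut, amidate or store peptides, 3 rose and 0 fell in the ventral piece by limma (6 and 1 at an unadjusted p under 0.05), against 4.25% and 5.54% of all probe sets: Scg2 (log2 2.45), Resp18 (1.80) and chromogranin B, Chgb (0.67), all proteins of secretory granules. The median was 0.52 against -0.02 over all tested probe sets. The same 3 genes fell in the medial piece and 0 rose by limma (4 and 0 at an unadjusted p under 0.05). In the dorsal piece 1, Resp18 (log2 -1.04), fell and 0 rose by limma (4 and 0 at an unadjusted p under 0.05), against 0.154% and 0.12% of all probe sets. The ventral count was between 2 and 4 whichever array was left out, and 6 with replicate number as a block. The medial count was 0 without medial replicate 2 and 1 without medial replicate 1, dorsal replicate 2 or either ventral array. The dorsal count was 0 without any 1 of 9 arrays, all but those of the rostral piece and occipital replicate 2. Carboxypeptidase E (Cpe), which trims the cut peptides, differed by 0.52 in the ventral piece (adjusted p = 0.151). The amidating enzyme Pam, which finishes neuropeptide Y but not somatostatin, differed by -0.98 there (adjusted p = 0.188). Over the 10 piece arrays Cpe correlated with Sst at r = 0.944 and with Npy at 0.192.

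Among receptors of the 2 peptides, Sstr2 and Sstr4 of somatostatin passed the filter, and those of neuropeptide Y on the array (Npy1r, Npy2r, Npy4r, Npy5r and Npy6r) did not. Sstr2 ran against its ligand. On its brightest probe set it read 1934 and 1478 on the ventral arrays, against 10269 and 6183 on the medial, 7480 and 4430 on the dorsal, 5565 and 3507 on the rostral and 4184 and 4123 on the occipital arrays. The ventral arrays lay below all others, and this probe set fell in the ventral piece (log2 -1.67 ± 0.27 SE, limma adjusted p = 0.00661). A second Sstr2 probe set also fell (log2 -1.22 ± 0.23 SE, adjusted p = 0.0135 in limma), and the third, near the floor, differed by -0.71 (adjusted p = 0.212). Without either ventral array the count of receptor genes that fell was 0. Sstr2 correlated with Sst at r = -0.797 over the 10 piece arrays. Sstr4 differed by 0.72 in the ventral piece (adjusted p = 0.235).

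Genes listed for GABAergic interneurons differed between pieces as follows. The arrays do not say which GABAergic neurons made them. Of 38 listed, 29 had a probe set and 22 were tested. In the ventral piece 5 rose and 1 fell by limma (8 and 1 at an unadjusted p under 0.05), against 4.25% and 5.54% of all probe sets, with a median of 0.59 against -0.02. Gad1, which makes GABA, averaged 20952 ± 825 there, against 11885 ± 2968 in the rostral and 11555 ± 4789 in the occipital piece (SD, n = 2 each). In the dorsal and medial pieces it averaged 2963 ± 370 and 2831 ± 500. Slc32a1, the vesicular GABA transporter, averaged 12079 ± 1317 in the ventral piece. It averaged 6006 ± 2931, 5568 ± 1430, 1828 ± 256 and 1608 ± 81.3 in the rostral, occipital, dorsal and medial pieces. Calb1 (calbindin, log2 1.95), the kainate receptor subunit Grik1 (1.27) and Lhx6, the factor that specifies interneurons of the medial ganglionic eminence (0.69), also rose, and the chemokine receptor Cxcr4 fell (-1.13). The ventral count that rose was 2 without either ventral array and 8 without occipital replicate 1. Dlx1 and Dlx2 did not pass there. Dlx1 averaged 8918 ± 652 in the ventral, 11992 ± 4473 in the rostral and 12271 ± 6671 in the occipital piece (SD, n = 2 each). In the dorsal and medial pieces it averaged 4707.5 ± 401 and 4168 ± 610. Dlx2 averaged 3424.5 ± 76.1, 5411 ± 1364, 5696 ± 3987, 2484 ± 117 and 1788 ± 191 in the same order. The rostral and occipital replicates of both genes spread widely, so these means give no firm order of those pieces against the ventral one. In the rostral and occipital pieces 0 of the 22 passed by limma. At an unadjusted p under 0.05, 4 and 2 were higher there and 0 lower, against 1.03% and 1.17% of all probe sets higher.

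In the dorsal piece, where Npy peaked, 0 of the 22 rose and 2 fell by limma, Gad1 (log2 -1.66) and calretinin, Calb2 (-1.91), with 0 and 9 at an unadjusted p under 0.05. Over all probe sets the shares were 0.12% and 0.154%, and 2.73% and 3.89% unadjusted. The median was -0.57 against 0.02. Calb2 read 1025 and 738 on the dorsal arrays and 2017 or more on every other array. In the medial piece 0 rose and 2 fell by limma, Gad1 and Slc32a1 (1 and 8 at an unadjusted p under 0.05), against 0.514% and 0.754% of all probe sets, with a median of -0.46. The dorsal count was 0 without either medial, dorsal, ventral or hemisphere array and 1 without rostral replicate 2, and the medial count was 0 without either medial or ventral array or dorsal replicate 2 and 1 without dorsal replicate 1. The summed average difference of the 22 genes was 54573 to 58991 on the dorsal arrays, beside 58770 to 61991 on the medial, 126811 to 130085 on the ventral, 104639 to 111902 on the rostral and 91582 to 112602 on the occipital arrays. Over the 10 piece arrays Gad1 correlated at r = 0.933 with Sst and 0.012 with Npy, and Slc32a1 at 0.919 and 0.086. For 18 of the 22 the correlation with Sst was the higher one, with a median of 0.652, against -0.056 with Npy. The same held for 11 of 13 processing genes, 8 of 10 other precursors, 5 of 7 striatal and 7 of 10 non-neural genes, for 2 of 16 pallial genes and for 2097 of all 4560 other genes (46%). Over the 22 genes r with Npy ran from -0.719 for Calb2 to 0.517 for Lhx6, and over the 16 pallial genes from -0.728 to 0.755. These values describe the same 10 arrays and share their 5 pieces.

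**Figure D4:**
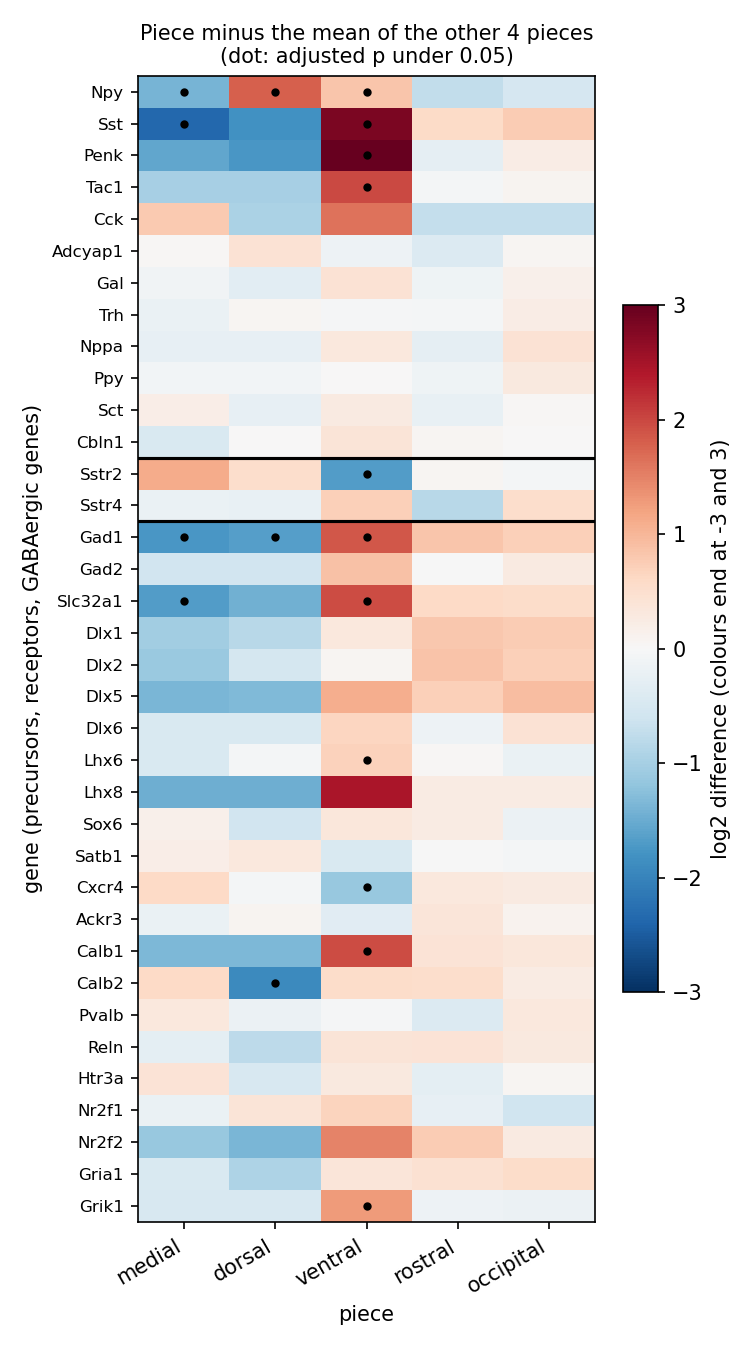
Log2 difference of each piece from the mean of the other 4 for tested peptide precursors, receptors and GABAergic genes, with a dot where the limma adjusted p is under 0.05. Npy has a dot in the dorsal column with a positive value, 1.80, while Gad1 and Calb2 have dots there with negative values, -1.66 and -1.91.

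Of 7 tested genes of striatal projection neurons, cells of the ventral telencephalon, 4 rose and 0 fell in the ventral piece by limma (4 and 0 at an unadjusted p under 0.05), against 4.25% and 5.54% of all probe sets: Penk, Tac1, the homeobox gene Pbx3 and the dopamine receptor Drd2. The other members differed by 0.41 (Foxp1), 0.66 (Meis2) and -0.64 (Pde1b) and did not pass. Leaving out ventral replicate 1 brought the count to 1, and leaving out ventral replicate 2 or either medial or dorsal array brought it to 2. Their summed average difference was 43587 to 49302 on the ventral arrays, beside 10905 to 28040 on the other piece arrays. Of striatal genes that did not pass the filter, Pdyn did not exceed 361 on any array, under the floor. The highest readings were 964 for Ebf1, 1228.5 for Zfp503, 1350 for Isl1 and 2111.5 for Rxrg, which exceeded 2 floors on 1 array. Of 16 genes of pallial neurons and progenitors 1 rose and 6 fell in the ventral piece by limma (1 and 11 at an unadjusted p under 0.05), against 4.25% and 5.54% of all probe sets. The 1 that rose was Nrgn (log2 2.17), with 7 of 12 arrays at the floor. Without ventral replicate 1 the count that fell was 2, and without any 1 of the medial, dorsal and ventral arrays 0 rose. Their sums were of 61670 to 80991 on the ventral arrays and 136576 to 212308 on the other piece arrays. The part of these lists in the levels of Sst and Npy was not tested. Of 10 genes of choroid plexus, meninges, vessels, blood and microglia, 0 passed in any piece by limma (0 rose and 1 fell in the dorsal and in the ventral piece, and 1 and 0 in the medial piece, at an unadjusted p under 0.05). Their sums were 94287 to 95094 on the dorsal and 92919 to 104643 on the ventral arrays, beside 89142 to 104755 on the other piece arrays. Most of that sum is the haemoglobin gene Hba-a1, which averaged 72134 to 78256 in the pieces. Ttr, the marker of choroid plexus, read 74.5 and 49.8 on the dorsal and 329 and 84.2 on the ventral arrays, all under the floor, against 2151 and 4564 on the medial, 2058 and 971 on the rostral and 1228 and 3527 on the occipital arrays. It differed by 1.52 in log2 in the medial piece (limma adjusted p = 0.134), and over the 10 piece arrays it correlated at r = -0.809 with Npy and -0.341 with Sst. Its part in the levels of Npy was not tested.

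The genes whose profile lay closest to each peptide gene were found among 4561 others by Pearson's r over the 10 piece arrays. For Npy they were Ablim1, an actin-binding protein (r = 0.960), Rap1gds1, an exchange factor for small GTPases (0.932), Cyp51, an enzyme of sterol synthesis (0.922), the netrin receptor Unc5c (0.903) and Fgf11 (0.880). Each of these 5 had its highest mean in the dorsal and its lowest in the medial piece. Ablim1 averaged 4985 in the dorsal, 3589 in the ventral, 2616 in the occipital, 2544 in the rostral and 2131 in the medial piece, the order found for Npy. The lowest r belonged to the tetraspanin Cd63 (-0.952), Fkbp9 (-0.950) and clusterin, Clu (-0.946), each with its highest mean in the medial piece.

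For Sst the closest were Blcap (r = 0.979), Ahi1, a protein of the cilium base (0.979), dynamin 1, Dnm1, of synaptic vesicle recycling (0.976), the RNA-binding protein Celf4 (0.973) and Slc35e4 (0.971). Each had its highest mean in the ventral piece. Dnm1 averaged 21542 there, 11541 in the occipital, 10717 in the rostral, 7635 in the dorsal and 5802 in the medial piece, again in the order of Sst. The lowest were the kinase Prkd3 (-0.957), Crnkl1 (-0.951) and Ndrg1 (-0.950), each lowest in the ventral piece. As these genes were picked for their r from the same arrays, the values describe them and test nothing.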

How the data were processed

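The authors deposited 1 value per probe set and array, the average difference of perfect-match and mismatch probes per the labels. It is a linear intensity that can be negative, and its software version is not given in the sources used here. The 2% trimmed means of the 12 arrays were between 2501.6 and 2501.9, so the deposited intensities had been scaled per array, and no further scaling was applied. The RNA was poly(A)+ by the protocol text, although the molecule label says total.

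Of 12488 probe sets, 66 controls were left out. The floor was the root mean square of the negative values, and lower values were raised to it before log2. The 5832 probe sets (46.9%) above 2 floors on at least 2 arrays entered limma 3.58.1 (R 4.3.3), with 1 fit of 6 group means with 6 residual degrees of freedom. P-values are two-sided, or those of an F-test, and were adjusted by Benjamini and Hochberg over all 5832 within a comparison, with a threshold of 0.05. Intervals of 95% are not adjusted. Folds come from the log2 means, except those of the hemisphere over the pieces, which are ratios of linear means. Within-array differences were tested by exact permutation in Python 3.11.15. Both procedures were tested on simulated data.

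A gene with several probe sets is represented by the one with the highest mean. RefSeq changed 0 symbols. Members and gene lists were chosen with earlier results of these data known, so their calls are no independent support. Named genes are the members, called or functionally listed genes of the lists, and the 5 highest and 3 lowest r for each member. Cck, Vip, Pdyn, Pnoc, Cort, Ebf1, Zfp503, Isl1 and Rxrg were added after their values were seen. Alternatives were other floors, filters and scales, quantile normalization, robust variances with a trend, a block for the replicate number, the piece arrays only, each array left out, and, chosen after seeing the data, a fit without the rostral and occipital arrays.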

Additional observations from a re-analysis of the deposited data

How the results depend on the processing

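Over 36 results on Npy and Sst, 756 values came from alternatives: 720 kept their direction and side of the threshold, 24 lost the call, 9 gained one and 3 changed sign. The sign changes were of differences that passed in no setting: Sst in medial against dorsal was 0.18 without medial replicate 2, and in rostral against occipital 0.0074 without rostral replicate 2 and 0.20 without occipital replicate 2. With 1 array left out these ran from -1.02 to 0.18 and from -0.51 to 0.20. Where 1 array was left out, its group's lone array was assumed to vary like the other groups. The calls that held in every setting were Npy over all pieces and in the dorsal piece, Npy in medial against dorsal, medial against ventral and dorsal against rostral, Sst in the ventral piece and in medial and dorsal against ventral, and both permutation tests of Sst minus Npy. Without a filter, Sst in the medial piece was -2.35 with adjusted p = 0.0627 (limma). With trend and robust variances, limma called Sst in the dorsal piece (-1.82, adjusted p = 0.0446), in medial against rostral (-2.34, 0.0484), medial against occipital (-2.50, 0.0437) and ventral against rostral (1.81, 0.0494). The labels do not say that equal replicate numbers share a dissection, so the number was not a block in the fit reported. Deviations from group means correlated at over 0.1 in 14 of 15 pairs of groups, with a median of 0.41. The exception, at -0.06, was rostral and occipital, the pieces whose labels carry the doubt given above. With the replicate block, limma called Sst in the dorsal piece (-1.82, adjusted p = 0.0427) and in ventral against rostral (1.81, 0.0394), and no other call of Npy or Sst changed. Without the rostral and occipital arrays, a setting chosen after seeing the data, Npy lost its call in the ventral piece (0.51, adjusted p = 0.0765 in limma) and in dorsal against ventral (0.77, 0.0577).

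With 1 array left out, Npy ran from -1.44 to -1.37 in the medial piece and 0.71 to 0.97 in the ventral piece. Npy ran from 0.64 to 0.90 in dorsal against ventral, 1.81 to 1.88 in dorsal against occipital, 1.14 to 1.40 in ventral against rostral and 0.94 to 1.20 in ventral against occipital. Sst ran from -2.95 to -1.75 in the medial piece, -2.11 to -1.53 in the dorsal piece and 1.64 to 1.97 in ventral against rostral, and the adjusted p of its F-test (limma) from 0.0079 to 0.0617. The causes of these changes were not tested. Of the gene counts, GABAergic genes higher in the ventral piece numbered 4 to 10 over the other settings (10 without the rostral and occipital arrays), those lower in the dorsal piece 0 to 5 (0 at the lower floor, without a filter, on the arcsinh scale and with the piece arrays only) and those lower in the medial piece 0 to 4. Processing genes higher in the ventral piece numbered 2 to 6, with 6 under the replicate block, and striatal genes 2 to 5. Signal over background limits the genes near the floor.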
